A study of Mus musculus with 6 samples.

Results

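The 7 genes described here encode subunits of the voltage-gated sodium channels of the brain. Scn1a, Scn2a, Scn3a and Scn8a encode alpha subunits, and Scn2b, Scn3b and Scn4b encode beta subunits. They were chosen by symbol, and each matched 1 of the 17889 rows of the deposited table through its Ensembl identifier in GENCODE M21. The samples are prefrontal cortex from mice of the C57BL/6J strain, taken at postnatal day 28, and messenger RNA was sequenced. The control group held 3 samples of genotype WT, and the other group held 3 samples titled Hetero whose genotype entry reads Cyfip2 mutant. The mutated gene, Cyfip2, codes for a member of the WAVE complex, which directs actin assembly. The labels name no treatment. Neither the allele nor the sex of the mice is given in the sources used here. Whether the 3 samples of a group are separate animals is not stated either, so that a p-value here measures only the spread among the samples, part of which may be technical.

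A voltage-gated sodium channel opens when the membrane depolarises and carries the inward current of the action potential. The alpha subunit is a large protein of 4 homologous domains that forms the pore and the voltage sensors. The beta subunits are small proteins that cross the membrane once, carry an immunoglobulin-like fold outside the cell, and adjust gating, surface delivery and adhesion. In cortex, Scn1a is known for its role in inhibitory interneurons and Scn2a for its role in excitatory neurons. Scn8a is known for the initial segments and nodes of mature axons, and Scn3a for high expression before birth. Variants of several of these genes cause epilepsy.

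The genes lie in clusters in GRCm38. Scn3a (chromosome 2, 65457118 to 65567627, minus strand), Scn2a (chromosome 2, 65620771 to 65767447, plus strand) and Scn1a (chromosome 2, 66270778 to 66440840, minus strand) are neighbours, with gaps of 53.1 and 503.3 kb. Scn8a stands alone (chromosome 15, 100869858 to 101045938, plus strand). Scn2b (chromosome 9, 45117782 to 45130070) and Scn4b (chromosome 9, 45138395 to 45154152) follow each other on the plus strand with a gap of 8.3 kb. Scn3b (chromosome 9, 40269217 to 40291618, plus strand) lies 4826.2 kb before Scn2b on the same chromosome. All 7 are protein coding. The longest coding transcript ran from 8386 bases (Scn1a) to 11436 bases (Scn8a) in the alpha genes and from 4150 bases (Scn3b) to 4982 bases (Scn4b) in the beta genes.

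The alpha genes are close relatives, and their likeness bears on how reads can be told apart. Over the whole coding sequence the identity of aligned bases was 81.7% to 83.9% among the 3 genes of chromosome 2 and 74.7% to 75.1% between Scn8a and each of them. Among the beta genes it was 58.6% to 61.1%.

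Scn8a is the alpha gene that stands apart in sequence. Shown here is its fast inactivation gate, the loop between the third and the fourth domain that plugs the open pore, read from its longest coding transcript in GENCODE M21. The capitals mark the codons for isoleucine, phenylalanine and methionine, the residues known to close the pore:
Scn8a: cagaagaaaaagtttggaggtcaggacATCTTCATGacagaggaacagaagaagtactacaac

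The stretch has 63 bases and spans exons 24 and 25 of a transcript of 27 exons, at chr15:101032311-101033528 on the plus strand of GRCm38, intron included.

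Of all 31-base words in the longest coding transcript, 9.78% in Scn1a, 12.5% in Scn2a and 12.4% in Scn3a also occurred in a transcript of another gene, nearly all in other sodium channel genes. The share was 0.666% in Scn8a, 2.4% in Scn2b and 0.364% in Scn3b, and it was 0 of 4952 words in Scn4b. Reads from shared words may be harder to place, so the values of Scn1a, Scn2a and Scn3a may carry more uncertainty from read assignment than that of Scn8a. This uncertainty was not measured. On the opposite strand Gm10684 overlaps Scn2b, and it read at most 3.1 in any library. Genes on the opposite strand also overlap Scn1a, Scn3a and Scn3b, but they have no row in the deposited table, so their signal cannot be judged. The library kit keeps strand, but whether the counting used it is not stated.

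The deposited values are normalized counts, scaled by the authors, and their column totals lie between 29879143 and 30735443. The libraries held an estimated 25500000 to 43900000 assigned reads, judged by the steps between low values, and Hetero sample 3 had the most. The member with the fewest estimated reads in a library was Scn4b, with 1190 in WT sample 3. This would give a counting error of about 2.9%, without any error from read assignment. Cyfip2 itself read 31933, 30496 and 27503 in WT and 20959, 21237 and 18285 in Hetero. It was lower in every Hetero library, by -0.57 ± 0.07 (SE) on the log2 scale, and its limma adjusted p was 0.31. The 6 excitatory neuron markers were all present, with a summed value of 229694 to 242960 in WT and 223071 to 225779 in Hetero, so this sum was lower in every Hetero library. The 7 interneuron markers summed to 20386 to 22025 in WT and 21612 to 22797 in Hetero. The oligodendrocyte precursor sum was also lower in every Hetero library, and the choroid plexus sum was higher in each but reached only 105.4. The sums of the other 8 marker lists overlapped between the groups. Among single tested genes, the groups did not overlap for 8.72% (4.32% lower and 4.4% higher in Hetero). In bulk tissue, fewer cells of a type and less RNA per cell cannot be told apart, and what part the shifts in these sums have in the values below was not tested.

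To compare genes, each value was divided by the length of the longest coding transcript, giving a normalized count per kb. Scn2b, a beta subunit that is joined to the alpha subunit by a disulfide bond, had the highest level of the 7, at 1597 ± 60.1 per kb (SD over the 6 libraries). Scn2a followed at 1305 ± 163 and Scn8a at 1297 ± 99.1 per kb. The first place of Scn2b depends on this length: without a length, Scn8a (mean 14827) and Scn2a (11660) lay above Scn2b (7434). Scn8a also lay above Scn2b with the mean length of the annotated basic coding transcripts, which is 6948 bases for Scn8a and 4307 for Scn2b. Scn2a and Scn8a changed places between libraries, with Scn2a above Scn8a in 3 of 6. Scn1a was lower, at 688 ± 67.1 per kb, and Scn8a stood 1.71 to 2.05 times above it in every library. Scn3b, a beta subunit bound without a covalent bond, lay at 638 ± 58.4 per kb, and its range overlapped that of Scn1a. Scn4b, a beta subunit whose tail can block the open channel and so produce resurgent current, had 369 ± 67.9 per kb. Scn3a was the lowest at 156 ± 20.1 per kb, below Scn4b in all 6 libraries. Among 14958 tested genes with a length, whose median was 205.5 per kb, Scn2b stood at percentile 92.3, Scn2a at 90.2, Scn8a at 90.1 and Scn3a at 43.4.

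**Figure D1:**
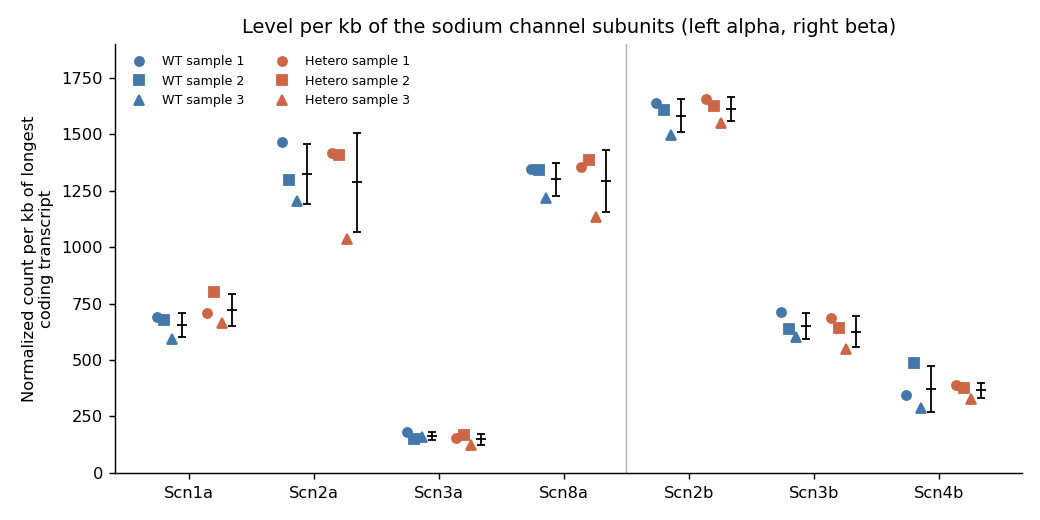
Normalized count per kb (y axis, linear) of the 4 alpha (left) and 3 beta (right) subunit genes (x axis); each symbol is a library, and the bar beside the symbols is the mean ± SD of the 3 libraries of a group. Scn2b, Scn2a and Scn8a lie highest, Scn3a lies lowest between 122 and 181 per kb, and the WT and Hetero symbols overlap for every gene.

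Shares express each subunit as a percentage of its own class, from the level per kb. Of the 4 alpha subunits, Scn2a made up 37.8% ± 1.63, Scn8a 37.7% ± 0.927, Scn1a 20.0% ± 1.49 and Scn3a 4.53% ± 0.349 (SD over the 6 libraries). Scn2a and Scn8a thus held about equal shares, each above that of Scn1a in all 6 libraries. This equality depends on the length that divides the value. With the union of exons Scn8a took 37.8% and Scn2a 36.6%, with the coding length 44.2% and 34.3%, without a length 44.0% and 34.5%, and with the mean length of the annotated basic coding transcripts 47.4% and 32.3%. The annotated Scn8a transcripts differ much in length, with 15 coding transcripts from a total of 20. Scn3a stayed between 3.65% and 4.8% of the alpha total under the 5 ways of setting the length.

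Of the 3 beta subunits, Scn2b made up 61.4% ± 1.73, Scn3b 24.5% ± 1.39 and Scn4b 14.1% ± 2.0 (SD over the 6 libraries). The order of the 3 was the same under the 5 ways of setting the length. The Scn4b share was 17.8% in WT sample 2 and 12.1% to 14.3% in the other 5 libraries. The 3 beta subunits held 43.1% ± 1.36 of the summed level of the 7 genes, a share that moved from 26.2% without a length to 76.5% with the coding length. It should be read as a value for this set of genes only.

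Shares were then compared between genotypes, as a description without a test. Scn1a held 18.8%, 19.5% and 18.7% of the alpha total in the WT samples and 19.4%, 21.3% and 22.4% in the Hetero samples. The groups met, since Hetero sample 1 lay just below WT sample 2, while the other 2 Hetero samples lay above all WT samples. In Hetero sample 3, however, Scn1a itself read 661.9 per kb, below WT sample 1 (692.2) and WT sample 2 (676.7). Scn2a, Scn3a and Scn8a, which enter the same total, each had their lowest value there. Scn2a held 39.8%, 37.4% and 38% in WT and 39.0%, 37.4% and 35.1% in Hetero, with Hetero sample 3 the lowest. Scn8a held 37.9% ± 1.2 in the WT samples and 37.5% ± 0.793 in the Hetero samples, and Scn3a 4.74% ± 0.363 and 4.31% ± 0.184 (SD, n = 3 each). Scn2b held 60.8% ± 1.92 of the beta total in WT and 62.0% ± 1.67 in Hetero, Scn3b 25.0% ± 1.59 and 24.0% ± 1.25, and Scn4b 14.2% ± 3.14 and 14.0% ± 0.427 (SD, n = 3 each). The beta share of the 7 genes was 43.1% in both groups. None of these 8 shares separated the groups, under any of the 5 ways of setting the length.

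**Figure D2:**
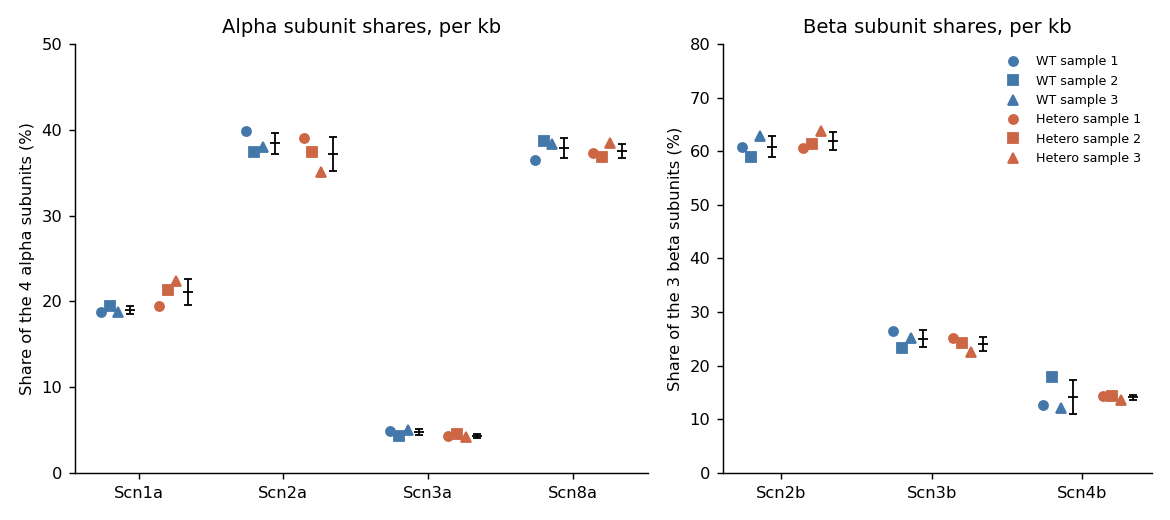
Share of each alpha subunit among the 4 alpha genes (left panel, y axis in percent) and of each beta subunit among the 3 beta genes (right panel, y axis in percent), from levels per kb; each symbol is a library, and the bar is the mean ± SD of 3. The groups overlap for every subunit, with Scn1a at 18.7% to 19.5% in WT and 19.4% to 22.4% in Hetero.

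Each member was then compared between Hetero and WT by its own deposited value. At a limma adjusted p under 0.05 over all 14969 tested genes, 0 of the 7 members were called, and the background share was 0%. At an unadjusted p under 0.05 there were again 0 of 7, where 3.83% of all tested genes (573) passed. The groups overlapped for all 7 members, where 8.72% of all tested genes had groups that did not overlap (4.4% higher in Hetero and 4.32% lower). All 7 passed the filter on low values, which asks for a mean of at least 10. Of the 7 fitted changes 3 were above and 4 below 0, with a median log2 change of -0.014, against -0.0019 over all tested genes.

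Among the alpha subunits, Scn1a had the smallest p of the 7 members. It read 5805, 5675 and 4979 in WT and 5924, 6706 and 5550 in Hetero (normalized counts). Hetero sample 2 was the highest and WT sample 3 the lowest, and the other 4 libraries lay close together. The log2 change was 0.14 ± 0.08 (SE), and Hetero stood at 1.10 times WT (95% interval 0.970 to 1.26). The limma adjusted p was 0.9996. Its unadjusted limma p was 0.12, and it was 0.030 without Hetero sample 3, 0.011 with trends of transcript length and GC content removed, 0.028 with a replicate block and 0.30 without WT sample 3. The limma adjusted p was 0.857 or higher in each of these. The log2 change itself was 0.067 without Hetero sample 2 and 0.074 without WT sample 3. Scn1a is prominent in interneurons, and the summed interneuron markers given above overlapped between the groups. Of the single markers, Gad1 and Pvalb were higher in every Hetero library, as were 4.4% of all tested genes. Gad1 read 7367 to 7613 in WT and 7962 to 8126 in Hetero, and Pvalb 828.9 to 861.3 and 938.5 to 1189. The other markers of this list overlapped between the groups. The part of interneuron RNA in the Scn1a value was not tested.

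Scn2a read 13110, 11581 and 10768 in WT and 12676, 12575 and 9251 in Hetero. Hetero sample 3 was the lowest of the 6, and the other 2 Hetero samples lay within the WT range. The ratio of Hetero to WT was 0.966, with a 95% interval of 0.785 to 1.2. Scn8a read 15381, 15342 and 13913 in WT and 15514, 15853 and 12960 in Hetero, and its lowest value again belonged to Hetero sample 3. The Scn8a ratio was 0.990, with a 95% interval of 0.874 to 1.12. Scn3a, the alpha subunit of the embryonic brain, read 1734, 1432 and 1511 in WT and 1497, 1618 and 1166 in Hetero. Its ratio was 0.910, with a 95% interval of 0.749 to 1.11, and Hetero sample 3 was the lowest here too. The limma adjusted p was 0.9996 for each of these 3 genes.

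Among the beta subunits, Scn2b varied least. It read 7638, 7490 and 6977 in WT and 7710, 7564 and 7223 in Hetero, a coefficient of variation of 3.76% over the 6 libraries. The ratio of Hetero to WT was 1.02, with a 95% interval of 0.935 to 1.11, the narrowest of the 7. Scn3b read 2960, 2638 and 2493 in WT and 2840, 2670 and 2281 in Hetero, a ratio of 0.961 with a 95% interval of 0.832 to 1.11. Scn4b varied most, at a coefficient of variation of 18.4%. It read 1710, 2422 and 1436 in WT and 1947, 1881 and 1641 in Hetero, so that its highest and its lowest value were both WT samples. Its ratio was 1.00, with a 95% interval of 0.753 to 1.34, and the limma adjusted p was 0.9996 for each of the 3 beta genes. Scn4b is abundant in the striatum, and the 8 striatum markers summed to 4379, 4911 and 4781 in the WT samples and to 4915, 4722 and 5056 in the Hetero samples. WT sample 2, where Scn4b was highest, had the highest value for 4 of the 8 markers, and Hetero sample 3 had the highest sum. The part of striatal RNA in the Scn4b values was not tested.

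**Figure D3:**
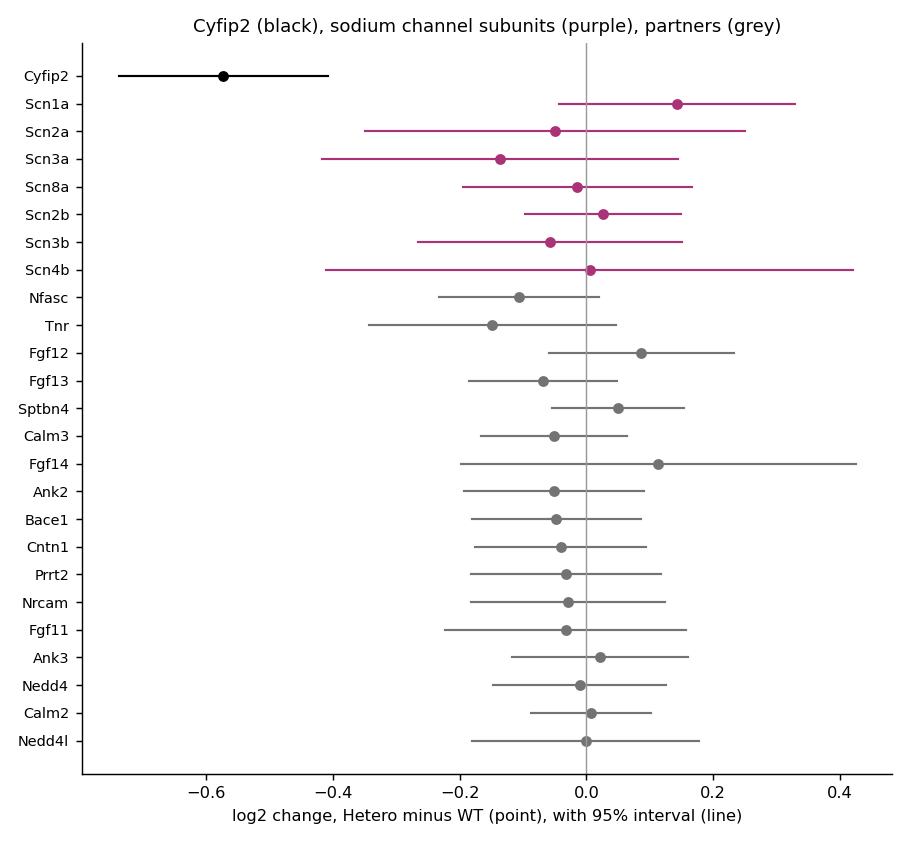
Log2 change, Hetero minus WT (x axis; point) with its 95% limma interval (line) for Cyfip2 (black), the 7 sodium channel subunits (purple) and partner genes (grey), each on its own line of the y axis. Every interval except that of Cyfip2, which spans -0.74 to -0.41, includes 0.

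The ratios of 1 subunit to another within a library do not depend on how the library was scaled. Scn8a per kb divided by Scn2a per kb was 0.987 ± 0.0623 in the WT samples and 1.01 ± 0.0730 in the Hetero samples (SD, n = 3 each). Scn1a, known to increase after birth, divided by Scn3a, known to decline then, was 3.82, 4.52 and 3.76 in WT and 4.51, 4.72 and 5.43 in Hetero. WT sample 2 and Hetero sample 1 had nearly the same ratio, so the groups overlapped. The highest ratio, in Hetero sample 3, went with the lowest Scn3a level of the 6 libraries, 122.0 per kb. Scn2b divided by Scn4b was 4.43 ± 0.992 in the WT samples and 4.42 ± 0.256 in the Hetero samples (SD, n = 3 each).

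The lowest value of every member came from 1 of 2 libraries. Hetero sample 3 was the lowest of 6 for Scn2a, Scn3a, Scn8a and Scn3b, and WT sample 3 was the lowest for Scn1a, Scn2b and Scn4b. The same 2 libraries had the highest sums of oligodendrocyte and of erythroid markers. The oligodendrocyte sum was 143152 in WT sample 3, 122529 in Hetero sample 3 and 88533 to 109504 elsewhere. The erythroid sum was 26474, 30359 and 8508 to 15513 in the same order. The part of these marker differences in the member values was not tested. Hetero sample 3 lay below the gene's mean by -0.32 for Scn2a, -0.35 for Scn3a, -0.19 for Scn8a and -0.21 for Scn3b on the log2 scale. For Scn1a the deviation was only -0.05. Without Hetero sample 3 all 7 fitted changes were above 0, from 0.0023 for Scn3a to 0.20 for Scn1a, and 0 members passed the adjusted threshold. The median log2 change over all tested genes in that fit was 0.00033. How many other genes of like transcript length also lay above 0 in that fit was not counted, so the 7 cannot be read as a joint rise.

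The deviation of Hetero sample 3 moved with transcript length over the whole table. It was the lowest library for 64.6% of the 873 tested genes whose longest transcript has 8 kb or more, for 37.0% of those between 4 and 8 kb and for 13.2% of those under 4 kb. The median deviation of Hetero sample 3 was -0.18 in the longest class and 0.042 in the shortest (log2). All 4 alpha transcripts belong to the longest class and all 3 beta transcripts to the middle class. With trends of length and GC content removed from each library, the log2 changes were 0.17 for Scn1a, -0.014 for Scn2a, -0.094 for Scn3a and 0.040 for Scn8a. The part of transcript length in the values of single members was not tested beyond this.

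**Figure D4:**
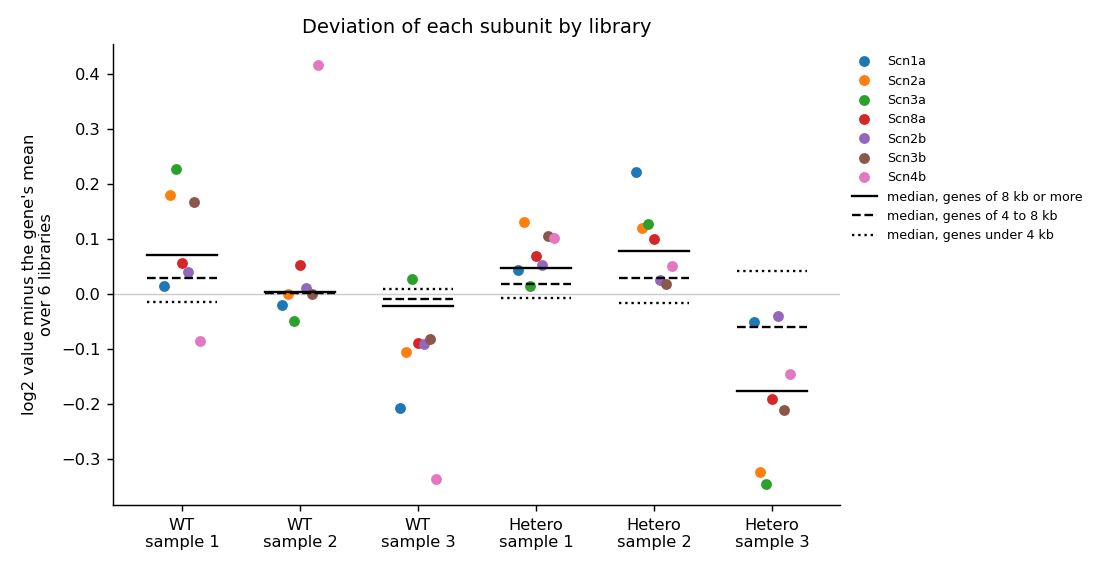
Deviation of each subunit from its own mean over 6 libraries (y axis, log2 scale) (coloured points) in each library (x axis); horizontal black lines give the median over tested genes of 3 classes of transcript length. In Hetero sample 3 the median of genes of 8 kb or more is -0.18, and Scn2a and Scn3a lie at -0.32 and -0.35.

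Over the 6 libraries, Scn2a and Scn3b had the highest correlation of any pair of members (Pearson r = 0.963 of the log2 values), followed by Scn2a and Scn8a (r = 0.946). Without Hetero sample 3 these were 0.916 and 0.83 over 5 libraries. Over these 5 the highest pair was Scn8a and Scn2b (r = 0.933). Scn3a and Scn4b had the lowest r over 6 libraries, 0.035, which was -0.433 without Hetero sample 3. The neighbours Scn2b and Scn4b had r = 0.633, and the neighbours Scn2a and Scn3a 0.902, which was 0.644 without Hetero sample 3. All values share the same libraries and the same scaling, and each r describes only these 6 points.

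The partner list held 20 genes whose products bind, anchor or process sodium channels, and all 20 were tested. Of these, 0 passed the adjusted threshold and 0 had an unadjusted limma p under 0.05. Fitted values were higher in Hetero for 7 and lower for 13, with a median log2 change of -0.031 against -0.0019 over all tested genes. Nfasc, the neurofascin that gathers channels at initial segments and nodes, had the smallest p of the list and differed by -0.11 ± 0.06 (SE). It read 12679, 13460 and 13951 in WT and 12535, 12936 and 11779 in Hetero. Tnr, which encodes the matrix protein tenascin-R, a ligand of beta subunits, differed by -0.15 ± 0.09 (SE). Fgf12 and Fgf13 encode intracellular FGF proteins that bind the tail of the alpha subunit, and they differed by 0.086 ± 0.065 and -0.068 ± 0.052 (SE). Sptbn4, the spectrin under the axon initial segment, differed by 0.049 ± 0.046 (SE). Nfasc, Tnr and Sptbn4 have transcripts in the class of 8 kb or more. Hetero sample 3 was the lowest library for Nfasc and for Tnr (6551 against 7900 to 8644 elsewhere), and WT sample 1 was the lowest for Sptbn4. The part of transcript length in the values of single partners was not tested. The groups did not overlap for 2 of the 20, where the background share is 8.72% (4.32% lower and 4.4% higher in Hetero). Fgf13 read 3863 to 3909 in WT and 3564 to 3812 in Hetero, and Sptbn4 read 8385 to 8443 in WT and 8454 to 8840 in Hetero. Ank3, the ankyrin that anchors the channels at the initial segment, was chosen for mention after its value was seen and differed by 0.022 ± 0.062 (SE). The limma adjusted p was 0.9996 for every partner.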

How the data were processed

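Poly(A) RNA of prefrontal cortex was sequenced in 3 WT and 3 Hetero samples with a stranded kit, per the labels' protocols. The authors deposited 1 table of normalized counts per gene, treated here as a signal that is never negative. Build GRCm38 and the tools DESeq2 1.19.11, Salmon 0.11.2 and R 3.6.0 stand in the submitters' processing notes, without their roles. The annotation, filter and scaling formula behind the table are not stated in the sources used here. Among values under 60, the best step for a library left 15.5% to 28.0% of them whole (tolerance 0.02), against at most 3.26% for a typical step, so whole reads could not be recovered and no count test was run. The column total divided by that step gave the estimated reads.

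Of the identifiers, 17875 matched GENCODE M21 and 14 did not. Groups were taken from the sample titles. Genes with a mean of at least 10 (14969) were fitted as log2(value + 1) with limma 3.58.1 in R 4.3.3 (intensity trend, robust, two-sided, Benjamini-Hochberg over all tested genes, threshold 0.05). Log2 changes are on that scale. The script was tested on simulated data. Members, lists and rules were chosen with earlier results of these data known. Named genes are Cyfip2, the members, the 6 partners with the smallest p, the 2 protein-coding genes most correlated with each member, and the other sodium channel genes. Ank3, Gad1 and Pvalb were named after their values were seen. The partner list includes Fgf11, Fgf12, Fgf13, Fgf14, Ank2, Ank3, Sptbn4, Nfasc, Nrcam, Cntn1, Tnr, Calm2, Calm3, Nedd4l, Nedd4, Bace1 and Prrt2. Some genes and sequences these rules cover are not reported here.

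Alternatives were no filter or a mean of 50, pseudocounts of 0.5 and 8, median centring, TMM rescaling, limma with neither trend nor robust fitting, removal of length and GC trends by splines (4 degrees of freedom each), a replicate block, leaving out each sample, and other lengths for the shares.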

Additional observations from a re-analysis of the deposited data

How the results depend on the processing

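No member and no partner gene passed the adjusted threshold under any of the 15 alternatives to the limma fit. Over all tested genes the count of 0 became 1 with length and GC trends removed (Cyfip2) and 2 with a replicate block (Cyfip2 and Jun), and it ranged from 0 to 1 when each sample was left out in turn (Rpl15-ps3 without WT sample 1, Gm10240 without Hetero sample 2). The labels do not say whether the replicate numbers mark pairs. Same-numbered samples had correlations of -0.005, 0.0044 and 0.227 of their deviations over genes. The value of 0.227, for the samples numbered 3, was the highest of any WT and Hetero sample. WT sample 1 was closest to Hetero sample 2 (0.181). With 3 samples per group these correlations cannot decide whether the samples were paired. In this balanced design the block alters errors and p-values only, and with it the unadjusted limma p of Scn1a was 0.028 (adjusted p = 0.857). Of the recomputed member changes 91 kept their sign and 14 took the other, each for a gene whose 95% interval included 0. The highest counting error of a member, judged from the estimated reads, was about 2.9%, and it leaves out any error from read assignment. Without Hetero sample 3 the log2 change was 0.10 for Scn2a, 0.0023 for Scn3a, 0.078 for Scn8a and 0.034 for Scn3b. Without WT sample 1 it was 0.028 for Scn2a, 0.011 for Scn8a, 0.012 for Scn3b and -0.037 for Scn4b, and without WT sample 2 it was 0.0087 for Scn8a. Without WT sample 3 it was -0.013 for Scn2b and -0.16 for Scn4b. For Scn4b it was -0.044 without Hetero sample 1 and -0.020 without Hetero sample 2. Leaving out samples gave 0.067 to 0.20 for Scn1a, -0.13 to 0.10 for Scn2a, -0.23 to 0.0023 for Scn3a, -0.068 to 0.078 for Scn8a, -0.013 to 0.053 for Scn2b, -0.12 to 0.034 for Scn3b and -0.16 to 0.21 for Scn4b. With length and GC trends removed it was 0.040 for Scn8a.

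Shares moved with the length that divides the value, by construction. With the union of exons Scn2b took 65.2%, Scn3b 19.8% and the beta subunits 49.6% of the 7 genes. With the mean length of basic coding transcripts Scn1a took 16.7%, Scn2a 32.3%, Scn3a 3.65%, Scn8a 47.4% and the beta subunits 37.9%. With the coding length Scn1a took 17.0%, Scn2a 34.3%, Scn8a 44.2%, Scn3b 22.4% and the beta subunits 76.5%. Without a length Scn1a took 17.1%, Scn2a 34.5%, Scn8a 44.0%, Scn3b 22.2% and the beta subunits 26.2%. Leaving out any sample moved no share by more than its SD.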

Other observations

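The table also holds sodium channel genes outside the set described above. Scn7a, which encodes a channel of glia and sensory neurons that responds to sodium concentration, read 115, 97.3 and 101 in WT and 86.4, 72.7 and 62.2 in Hetero. Its groups did not overlap, as for 4.32% of all tested genes in that direction, and it differed by -0.50 ± 0.17 (SE) on the log2 scale (limma adjusted p = 0.9996). Scn9a, a channel gene of sensory neurons, read 37.3 to 57.2 in WT and 34.1 to 68.0 in Hetero. Scn4a, Scn10a and Scn11a, the channel genes of skeletal muscle and of sensory neurons, stayed at or below 9.27 in every library and were not tested.

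The protein-coding genes whose log2 values followed each member most closely over the 6 libraries were Atp2a2 and Zfp790 for Scn1a (Pearson r = 0.993 each), Creb1 (0.998) and Nrcam (0.996) for Scn2a, and Senp5 (0.994) and Xk (0.993) for Scn3a. For Scn8a they were Zfhx4 and Usp29 (0.997 each). For Scn2b they were Snap25 (0.996) and Map7d2 (0.994), for Scn3b Il12a (0.999) and Rbbp6 (0.995), and for Scn4b Gm2004 (0.993). Of 14553 genes compared, 760 (5.22%) had r over 0.9 with Scn2a, 197 (1.35%) with Scn1a and 88 (0.605%) with Scn4b. Nrcam is also on the partner list.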
